A study of Schizosaccharomyces pombe with 14 samples.

Results

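The genes ecl1 (SPCC70.12c), ecl2 (SPBP35G2.16c) and ecl3 (SPBC8E4.12c) of the fission yeast Schizosaccharomyces pombe are annotated as extenders of chronological lifespan, the time that non-dividing cells stay viable. They were chosen by name, as the 3 genes carrying these symbols among the 6988 gene identifiers of the deposited count table, and all 3 were among the 6521 genes with enough counts to be tested. Because these genes were proposed with results against the wild type at 0 h in view, every value of an ecl gene against that group is given as a description with no test. Such results cover the wild type at every time after 0 h and the deletion at every time, 0 h included. Each tested comparison is thus a difference between results of that kind. The p-values of the tested comparisons are therefore not independent of that choice. In the maf1 deletion strain ecl1 rose from 39.3 ± 5.04 CPM at 0 h to 3756 ± 275 CPM after 48 h without phosphate (SD, n = 3), whereas in the wild type it stayed between 60.9 and 124 CPM in each of the 18 starved libraries. CPM is a gene's count per 1000000 counts of its library after scaling. The gene ecl2 was lower at 48 h than at 0 h in the wild type (95.3 ± 10.8 against 204 ± 12.9 CPM) and higher in the deletion (464 ± 30.2 against 134 ± 5.17 CPM), and ecl3 began near 0 in the wild type and at 9.92 ± 1.63 CPM in the deletion, with overlapping levels in the strains at 48 h.

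The Ecl proteins are small, and an extra dose of an ecl gene lengthens the chronological lifespan of S. pombe. They are known as part of the response to running out of nutrients, and Ecl1 binds zinc. The amino acid starvation factor Fil1 and the heat shock factor Hsf1 are among the transcription factors reported to act on ecl1 in this yeast. Maf1, in turn, is a conserved repressor of RNA polymerase III, the enzyme that makes tRNAs and other small RNAs, and holds that enzyme back when nutrients are short.

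Polyadenylated RNA was sequenced from 14 groups, which cross 2 strains with 7 times. The wild type was h- (lab strain AGP72), and the deletion was h+ with maf1 replaced by the natMX marker (lab strain AGP256), so mating type and the maf1 genotype changed together. At 0 h both strains were in log phase at 30 °C in YES, a rich medium, and the labels call this stage vegetative growth. At 4, 8, 12, 24, 36 and 48 h they were in ePMGT medium without phosphate, labelled limited growth up to 12 h and quiescence from 24 h, so that the change of medium and the loss of phosphate cannot be told apart. Each group had 3 replicate experiments, and whether these were separate cultures is not stated, so p-values measure only the spread between these libraries. In bulk RNA of this kind, fewer cells with a transcript and less transcript per cell cannot be told apart.

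Depth ran from 12157201 to 26359389 counts per library in the wild type and from 33249827 to 42808200 in the deletion, so depth also changed with strain. The maf1 transcript was at 20.9 to 106 CPM in the 21 wild-type libraries and 1.59 to 7.13 CPM in the 21 deletion libraries. The M-cell pheromone gene mfm2 was at 27.4 to 688 CPM in the wild type and at 3.99 to 15.1 CPM in the deletion. Of the 3 genes listed as P-cell markers, 2 were higher in the wild type than in the deletion at 0 h. The P-cell pheromone gene map2 stood at 106 to 111 CPM in the 3 libraries labelled wild type 0 h, which goes against their h- label. It stood at 7.58 to 12.2 CPM in the 18 later wild-type libraries and 5.57 to 6.36 CPM in the deletion at 0 h. In the 18 later deletion libraries map2 was at 5.09 to 32.6 CPM, a range that overlaps that of the later wild type. The agglutinin gene mam3, which the list counted with the P-cell genes although it is known from M cells, was higher in the wild type at 0 h (74.3 to 80.8 against 42.2 to 49.5 CPM) and from 4 to 48 h (128 to 266 against 36.3 to 100.4 CPM). The third, the pheromone receptor gene map3, was lower in the wild type at 0 h (median 9.53 CPM, against 24.6 to 26.9 CPM in the deletion), and its ranges overlapped later. Summed over the 3 listed P-cell genes, wild-type libraries held 189 to 201 CPM at 0 h and 165 to 307 CPM later, and deletion libraries 72.5 to 82.7 CPM and 61.8 to 181 CPM. For the 5 M-cell genes the sums were 234 to 286 CPM and 503 to 2846 CPM against 55.7 to 56.9 CPM and 73.5 to 105 CPM.

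At 0 h map2 thus goes against the h- label of the wild type, while mam2 and map3 go with it. Whether the libraries labelled wild type 0 h are of the same strain as the later wild-type libraries is therefore not known, and every wild-type change from 0 h carries that doubt. No tested ecl comparison sets a group against them, but they share the model's filter, scaling and spread. The ecl genes were also chosen with results against them in view. With these 3 libraries left out of the fit, an alternative chosen after seeing the data, no ecl call was lost and 2 values near the limit passed 2-fold, as given with those values. The part of mating type in any result was not tested.

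In the annotation of assembly ASM294v3 each of the genes has 1 exon. The gene ecl1 lies on chromosome III with a length of 820 bases, while ecl2 (1509 bases) and ecl3 (488 bases) lie on chromosome II. Levels are therefore compared between genes only per kilobase of gene length.

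From 8 h on, the strain difference was larger for ecl1 than for ecl2 or ecl3. In the wild type its 3 libraries read 59.3, 65.2 and 64.1 CPM at 0 h, 81.2, 84.9 and 76.7 CPM at 4 h, and 80.9, 95.9 and 85.6 CPM at 8 h. They reached 124, 106 and 111 CPM at 12 h and 103, 97.2 and 105 CPM at 24 h. The highest wild-type group was thus the one at 12 h, and the level then came back down. At 36 h the wild-type libraries read 72.5, 73.9 and 64.7 CPM and at 48 h 67.4, 60.9 and 81.0 CPM, which overlaps the values at 0 h.

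In the maf1 deletion ecl1 began lower and climbed at every time. Its libraries read 33.6, 41.5 and 42.9 CPM at 0 h, all below the wild type at 0 h. They read 130.1, 113 and 109.6 CPM at 4 h, 219, 241 and 189 CPM at 8 h, and 478, 454 and 449.7 CPM at 12 h. The steps at the later times were larger on the CPM scale, with 1749.9, 1863 and 1689.6 CPM at 24 h, 3538, 3042 and 3167 CPM at 36 h, and 4073, 3591 and 3604 CPM at 48 h. No 2 of these 7 deletion groups overlapped, a separation that was not counted over all genes. At 48 h the mean scaled CPM of ecl1 corresponded to 0.376% in the deletion and 0.00698% in the wild type. These are shares after scaling and not raw shares of the counts.

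**Figure D1:**
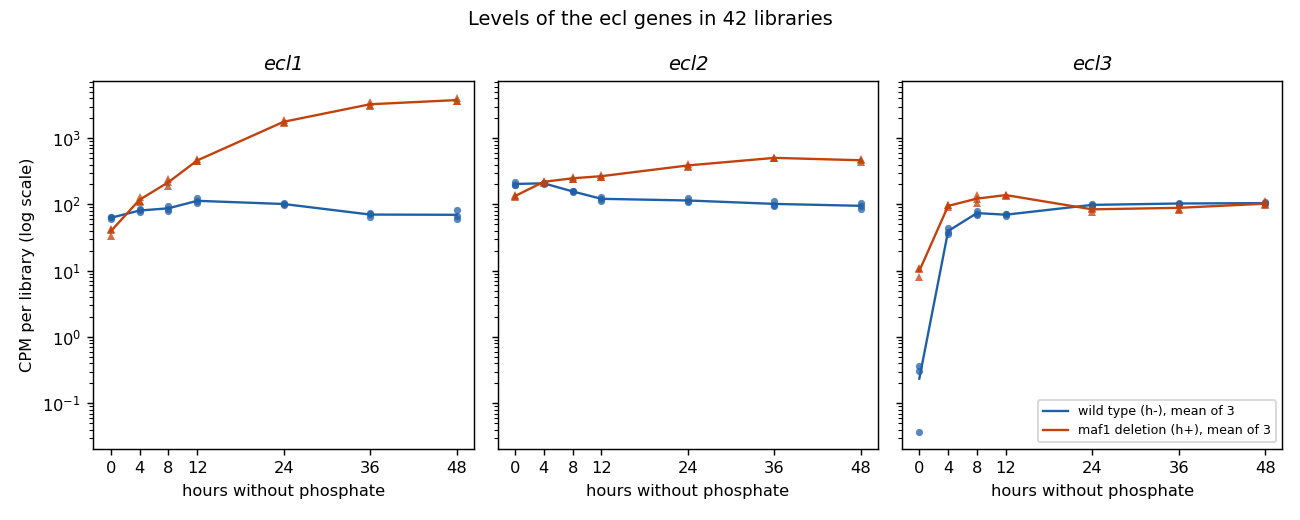
Level of ecl1, ecl2 and ecl3 in CPM on a log axis against hours without phosphate, with 1 point per library and lines through the means of 3 libraries (wild type in blue circles, maf1 deletion in red triangles). The deletion's ecl1 libraries climb to 3591 to 4073 CPM at 48 h, its ecl2 libraries separate upward from the wild type, and the ecl3 libraries of both strains meet at 96.8 to 111 CPM.

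The strains were compared at each time with edgeR's quasi-likelihood test fitted over all 6521 genes, and a gene was called at a Benjamini-Hochberg adjusted p under 0.05 and a change of at least 2-fold. The gene ecl1 was higher in the deletion by 1.31 ± 0.09 on the log2 scale at 8 h (SE, adjusted p = 6.79e-14), by 2.02 ± 0.09 at 12 h and by 4.12 ± 0.10 at 24 h (17.4-fold). The difference was 5.53 ± 0.11 at 36 h and 5.75 ± 0.11 at 48 h, which is 54.0-fold (adjusted p = 6.98e-32). At 4 h the difference of 0.54 ± 0.09 (adjusted p = 4.82e-06) had the same direction but was under 2-fold. Among the 6521 genes, ecl1 held place 75 from the top by strain difference at 36 h and place 90 at 24 h and at 48 h.

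Within the deletion, ecl1 was also tested against that strain's own 0 h libraries. It rose by 1.58 ± 0.09 on the log2 scale by 4 h, by 3.55 ± 0.10 by 12 h, by 5.49 ± 0.11 by 24 h and by 6.58 ± 0.11 by 48 h, a 95.6-fold rise (adjusted p = 1.90e-34). Per kilobase, ecl1 went from place 2356 of 5042 protein-coding genes at 0 h to place 150 at 12 h, place 29 at 24 h and place 10 at 48 h in the deletion. In the wild type its place moved only between 810 and 1451. As a description without a test, wild-type ecl1 differed from its own 0 h by 0.86 on the log2 scale at 12 h, and by 0.17 at 36 h and 0.15 at 48 h. With library size alone as the scale, the last 2 of these became -0.15 and -0.12.

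The gene ecl2 had lower levels in the later wild-type groups and higher ones in the later deletion groups. Wild-type libraries read 199, 194 and 219 CPM at 0 h, 213, 212 and 199.997 CPM at 4 h, and 159, 160.2 and 153 CPM at 8 h. They read 120.2, 114 and 131 CPM at 12 h and 124, 108 and 112 CPM at 24 h. By then every library stood below all 3 of those at 0 h, and only the 4 h group overlapped them. The lowest values came last, with 97.9, 114 and 94.0 CPM at 36 h and 84.9, 94.6 and 106 CPM at 48 h. As a description with no test, the level at 48 h was 2.14-fold lower than that at 0 h. On the log2 scale this was -1.10, and -1.37 with library size alone.

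In the deletion ecl2 began at 133, 139 and 129 CPM, below the wild type. Its libraries read 214, 216 and 229 CPM at 4 h, 262, 238 and 245 CPM at 8 h, and 261, 262 and 278 CPM at 12 h. They read 385, 405 and 374 CPM at 24 h, and the highest group was that at 36 h with 505, 504 and 505 CPM. The 48 h libraries, at 432, 469.9 and 491 CPM, all lay below those at 36 h. In all 6 starved times every deletion library was above every wild-type library, a separation that was not counted over all genes.

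The strain difference of ecl2 was 0.08 ± 0.06 on the log2 scale at 4 h (adjusted p = 0.30) and 0.66 ± 0.06 at 8 h, neither of which was called. It was called at 12 h (1.13 ± 0.07, adjusted p = 1.94e-16), at 24 h (1.76 ± 0.07), at 36 h (2.30 ± 0.07) and at 48 h (2.28 ± 0.07, or 4.87-fold, adjusted p = 2.68e-26). Against the deletion's own 0 h, ecl2 was called at 24 h (1.53 ± 0.06), 36 h (1.91 ± 0.07) and 48 h (1.79 ± 0.06). At 12 h its change of 0.997 ± 0.06 (adjusted p = 6.10e-17) lay just under the 2-fold limit, and it passed that limit with DESeq2, at 1.02, and without the libraries labelled wild type 0 h, at 1.04.

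The gene ecl3 was nearly silent in the wild type at 0 h. Its 3 libraries there held 11, 6 and 1 counts, a sum of 18 with an exact Poisson 95% interval of 10.7 to 28.4 that covers counting error only. In CPM these were 0.361, 0.307 and 0.0368. At 4 h the wild-type libraries read 35.6, 44.4 and 39.0 CPM, and even the lowest of them was far above 0 h. They read 72.3, 79.6 and 70.3 CPM at 8 h and 66.6, 71.5 and 72.0 CPM at 12 h. The level then settled, with 97.8, 103 and 95.2 CPM at 24 h, 102, 105 and 103 CPM at 36 h, and 101, 105 and 109 CPM at 48 h. As a description, ecl3 stood above its wild-type 0 h level by 7.38 on the log2 scale at 4 h and by 8.78 at 48 h, place 5 and place 4 among the 6521 genes. The second value ran from 8.23 to 9.38 when 1 library was left out, the low end without wild-type 0 h replicate 3 and the high end without replicate 1. The authors' deposited table gave 8.77 for the same comparison.

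In the deletion ecl3 was already transcribed at 0 h, with 10.5, 8.07 and 11.2 CPM. Its libraries read 96.9, 91.5 and 96.7 CPM at 4 h, 139, 122 and 106 CPM at 8 h, and 141, 138 and 136 CPM at 12 h. That was the highest level of ecl3 in any group, although the 8 h and 12 h libraries of the deletion overlapped. Later libraries were lower, with 77.9, 89.3 and 85.9 CPM at 24 h, 83.9, 98.2 and 84.6 CPM at 36 h, and 96.8, 100.1 and 111 CPM at 48 h. The ranges of the 2 strains overlapped at 48 h, the single time at which this happened for any of the 3 genes. Separation of ranges was not counted over all genes. It also occurred for ecl2 at 4 h, where edgeR's test called no difference (adjusted p = 0.30).

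The strain difference of ecl3 was called at 4 h, when the deletion was higher by 1.26 ± 0.09 on the log2 scale (adjusted p = 1.64e-14). It was 0.73 ± 0.08 at 8 h and 0.98 ± 0.09 at 12 h, both under 2-fold, and the second reached 1.03 with library size alone, 1.01 without wild-type 12 h replicate 3, and 1.00 (called) without the libraries labelled wild type 0 h. At 24 h and 36 h the difference was -0.22 ± 0.08 (adjusted p = 0.018 and 0.021), and at 48 h it was -0.03 ± 0.08 (adjusted p = 0.76), which does not show the strains to be equal. Against the deletion's own 0 h, ecl3 was called at every time, from 3.26 ± 0.10 at 4 h to a maximum of 3.80 ± 0.10 at 12 h and 3.37 ± 0.10 at 48 h (10.3-fold). At 0 h, as a description, the deletion stood above the wild type by 5.39 on the log2 scale for ecl3 and below it by 0.68 for ecl1 and 0.61 for ecl2. With library size alone the ecl1 and ecl2 differences were -0.96 and -0.89. The ecl3 value ran from 4.86 to 6.02 when 1 wild-type 0 h library was left out.

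Phosphate genes differed between the strains at 0 h as well. The phosphate transporter gene pho84 was at 188 to 245 CPM in the wild type and 873 to 1012 CPM in the deletion, and the secreted acid phosphatase gene pho1 at 57.0 to 68.3 CPM and 773 to 1064 CPM. Their part in the ecl3 difference at 0 h was not tested.

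**Figure D2:**
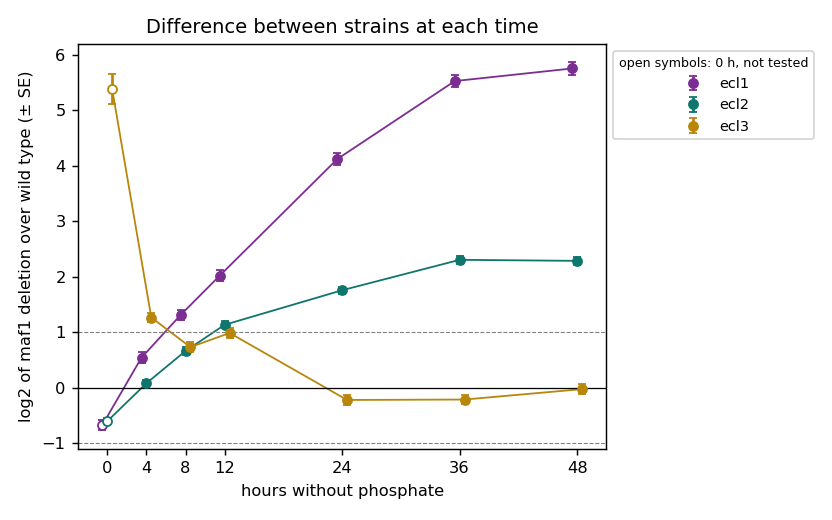
Difference between strains in log2 of the maf1 deletion over the wild type (± SE of the model) against hours without phosphate for the 3 genes, with dashed lines at the 2-fold limit and open symbols at 0 h, where no test was made. The ecl1 points climb to 5.75 at 48 h, those of ecl2 level off at 2.30 and 2.28, and those of ecl3 come down from 1.26 at 4 h to -0.03.

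Counted over the 3 genes, the number called between strains was 1 at 4 h (ecl3) and 1 at 8 h (ecl1), where 7.97% and 6.81% of all tested genes were called. It was 2 (ecl1 and ecl2) at 12, 24, 36 and 48 h, where the shares of all genes were 7.74%, 13.2%, 17.9% and 22.5%. Against the deletion's own 0 h, ecl1 and ecl3 were called at 4, 8 and 12 h, where the shares of all genes called were 30.9%, 36.9% and 39.0%. All 3 were called at 24, 36 and 48 h, beside 41.7%, 41.4% and 42.3% of all genes. Of the 45 tests made on the 3 genes over 15 comparisons, 29 were called, where single comparisons called from 6.81% to 42.3% of all genes. The comparisons share libraries, so the total is not a count of separate results.

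The labelled stages were compared by setting the mean of 24, 36 and 48 h against the mean of 4, 8 and 12 h. Within the wild type none of the 3 genes was called by edgeR at 2-fold, although each had an adjusted p under 0.05, and 12.8% of all genes were called. The changes there were -0.23 ± 0.06 on the log2 scale for ecl1 (adjusted p = 3.34e-04), -0.61 ± 0.04 for ecl2 (adjusted p = 1.32e-16) and 0.79 ± 0.05 for ecl3 (adjusted p = 1.82e-16). DESeq2 also called 0 of the 3. In the deletion ecl1 rose by 3.61 ± 0.06 and was called, as were 19.5% of all genes. The changes of ecl2 (0.88 ± 0.04) and ecl3 (-0.35 ± 0.05) in the deletion were under 2-fold.

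The test of the difference between these changes called all 3 genes, beside 14% of all genes. The deletion's change exceeded that of the wild type by 3.84 ± 0.08 on the log2 scale for ecl1 (adjusted p = 7.27e-31) and by 1.49 ± 0.05 for ecl2 (adjusted p = 8.75e-24). For ecl3 it was lower, at -1.15 ± 0.07 (adjusted p = 3.67e-17). Between these stages ecl1 and ecl2 therefore differed from the wild type in one direction and ecl3 in the other.

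Ordered over the 14 groups by mean CPM, ecl1 ran from the deletion at 0 h through the wild-type groups to the deletion at 48 h, and 9 of its 13 neighbouring pairs had ranges that did not overlap. The pairs that overlapped were wild type 0 h with 48 h, 48 h with 36 h, and 4 h with 8 h, and wild type 12 h with the deletion at 4 h. For ecl2, 7 of 13 neighbouring pairs were apart. Its order ran from the wild type at 48 h, 95.3 ± 10.8 CPM, to the deletion at 36 h, 504 ± 0.493 CPM. For ecl3 only the 3 lowest steps were apart, from the wild type at 0 h to the deletion at 0 h, then to the wild type at 4 h and at 12 h. The 10 steps above them, up to the deletion at 12 h, overlapped. Overlap of ranges was not counted over all genes, so these counts describe the 3 genes only.

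Per kilobase of gene length, the makeup of the family turned over in both strains, toward a different gene in each. The 3 genes summed to 212 CPM per kilobase in the wild type at 0 h and to 363 at 48 h. In the deletion they summed to 157 at 0 h, 1023 at 12 h and 5099 at 48 h. In the wild type ecl2 held 63.7% of the sum at 0 h and 17.4% at 48 h, while ecl3 went from 0.227% to 59.1%. In the deletion ecl1 went from 30.5% at 0 h to 54.9% at 12 h and 89.8% at 48 h, when ecl2 held 6.03% and ecl3 4.12%. At 4 h ecl3 held 40.2% of the deletion's sum, more than either of the others.

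**Figure D3:**
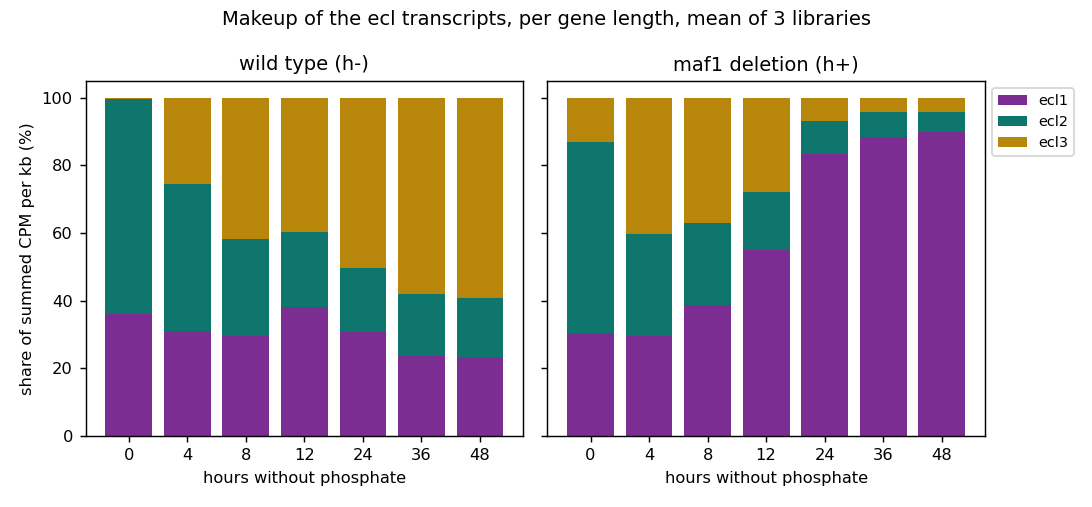
Share of each gene, in percent, in the summed CPM per kilobase of ecl1, ecl2 and ecl3 (mean of 3 libraries per group) against hours without phosphate, for the wild type on the left and the maf1 deletion on the right. By 48 h ecl3 holds 59.1% in the wild type and ecl1 holds 89.8% in the deletion.

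Across the 14 group means of log2 CPM, Pearson's r between ecl1 and ecl2 was 0.88. It was 0.99 over the 7 deletion groups and -0.18 over the 7 wild-type groups. Between ecl2 and ecl3 it was 0.09 over all groups, -0.68 in the wild type and 0.65 in the deletion, and between ecl1 and ecl3 it was 0.38, 0.51 and 0.57. The points are time courses that share strain and depth, so these values describe shape only. Those with ecl3 also lean on the 0 h groups, where its level was lowest in each strain.

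The named protein-coding genes whose group means followed ecl1 most closely were atm1, the mitochondrial iron-sulfur cluster exporter (r = 0.97 over 14 groups), gcn2, the eIF2 alpha kinase (0.96), and aro1, a pentafunctional enzyme of aromatic amino acid synthesis (0.96). Their ranges were much smaller: atm1 went from 85.2 CPM in the deletion at 0 h to 274 ± 13.3 CPM at 48 h, against 95.6 ± 3.30 CPM in the wild type at 48 h. For ecl2 they were mim1, a subunit of the mitochondrial MIM complex (0.98), the cyclin gene pas1 (0.93) and ftm1 (0.93). Of these, pas1 was likewise lower late in one strain and higher late in the other, with 771 CPM at 0 h and 246 ± 13.9 CPM at 48 h for the wild type, against 378 CPM and 848 ± 70.6 CPM for the deletion. The gene ftm1 was below 5 CPM in all 4 of these groups. For ecl3 they were ypt71, a GTPase gene (0.99), mrp7, which encodes a mitochondrial ribosomal protein (0.99), and emr1 (0.98). The level of ecl3 was 0.235 CPM in wild type 0 h and 9.92 CPM in deletion 0 h, against at least 39.7 CPM in every other group. Its r values therefore lean on the 0 h groups, of which the strain of the wild-type libraries is in doubt. Values of r without these groups were not computed. The level of mrp7 went from 20.2 CPM in the wild type at 0 h to 102 ± 6.34 CPM at 48 h, and from 57.7 to 104 ± 2.54 CPM in the deletion.

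The genes on either side of ecl1 did not share the size of its strain difference. Set between strains over 24 to 48 h, the left protein-coding neighbour SPCC70.04c differed by 0.60 on the log2 scale (adjusted p = 2.57e-16) and the right one, the protein kinase gene nnk1, by -0.34 (adjusted p = 2.51e-15), neither reaching 2-fold, where ecl1 differed by 5.13. SPCC70.04c did rise in the deletion between 0 h and 48 h, by 3.35 (adjusted p = 2.13e-30), from 7.92 ± 1.02 to 80.7 ± 2.08 CPM. In the wild type it went from 12.0 ± 1.32 to 51.4 ± 3.33 CPM. An antisense non-coding RNA, SPNCRNA.7727, is annotated across ecl1 on the opposite strand and has no row of its own in the counts used here. The library kit marks strand, but whether strand was used in counting is not given in the sources used here, so reads of ecl1 and of this RNA cannot be told apart.

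**Figure D4:**
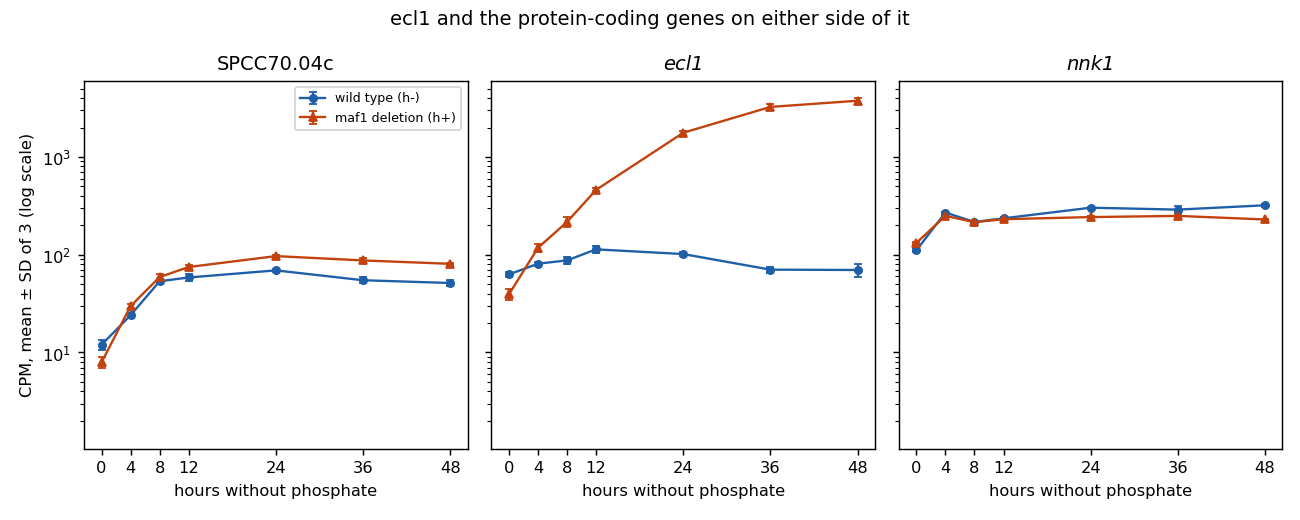
Level in CPM (mean ± SD of 3 libraries, log axis) against hours without phosphate for SPCC70.04c, ecl1 and nnk1, the protein-coding genes in their order along the chromosome. The strains separate for ecl1, by 5.13 on the log2 scale over 24 to 48 h, and stay within 2-fold of each other for SPCC70.04c (0.60) and nnk1 (-0.34).

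On the left side of ecl2, on the same strand, the dynein intermediate chain gene dic1 differed between strains over 24 to 48 h by -1.78 on the log2 scale, lower in the deletion (adjusted p = 2.96e-25), while ecl2 was higher there by 2.11. On its other side SPBP35G2.17 differed by 0.43 and the non-coding SPNCRNA.1400 by 0.93, both under 2-fold. At 48 h the histidine tRNA gene SPBTRNAHIS.02, on the left side of ecl2, had 0.110 ± 0.0389 CPM in wild-type libraries against 3.79 ± 0.446 CPM in those of the deletion, a small signal in libraries of polyadenylated RNA. Over 24 to 48 h it was higher in the deletion by 6.27 on the log2 scale (adjusted p = 5.46e-16), the direction of ecl2. Wild-type group means over those times were at most 0.110 CPM. Tests of ecl2 itself do not use these counts.

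The gene ecl3 lies beside prt2, a long non-coding RNA gene of the phosphate-controlled region that also holds pho84 and pho1. At 0 h prt2 had 78.8 ± 7.41 CPM in wild-type libraries against 16.5 ± 1.05 CPM in those of the deletion, the reverse of the order of ecl3. By 4 h wild-type prt2 was at 9.55 ± 0.585 CPM. Over 24 to 48 h the strains differed in prt2 by 0.43 on the log2 scale, which was under 2-fold. The non-coding SPNCRNA.117 on the other side of ecl3 had group means of at most 1.01 CPM in the wild type and differed by -0.50 (adjusted p = 0.24).

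Genes of the pathways around the family were counted from 3 lists. Over all genes, 38.5% were called in the wild type at 4 to 12 h against 0 h and 42.1% at 24 to 48 h, while the strain comparison called 6.95% in the early stage and 17.6% in the late stage. The wild-type changes from 0 h in these lists were tested, and they rest on the 0 h libraries with the high map2 level, whose strain is in doubt. With library size alone the share of higher genes among those called in the late wild-type comparison went from 52.3% to 39.4%, and the median over all genes there moved from 0.00 to -0.27 on the log2 scale.

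Of 30 transcription factor genes of stress and starvation, 10 rose and 2 fell in the wild type at 4 to 12 h, and 11 rose and 4 fell at 24 to 48 h, with medians of 0.65 and 0.59 on the log2 scale beside 0.04 and 0.00 over all genes. The largest changes were those of rsv1, which encodes a zinc-finger factor for survival in stationary phase (3.67 ± 0.26 late, from 0.325 to 4.39 CPM), and of hsf1 (2.38 ± 0.04 late, from 145 to 762 CPM). Between strains none was called at 4 to 12 h by edgeR or by DESeq2. Of the 30, 23 had an unadjusted p under 0.05 there. At 24 to 48 h 2 were higher in the deletion, pcr1, which encodes the partner of the stress factor Atf1 (1.23 ± 0.03), and fil1 (1.12 ± 0.04, 2278 ± 333 against 1043 ± 102 CPM over 9 libraries each). The fil1 difference was 0.55 ± 0.04 at 4 to 12 h. By contrast hsf1 differed between strains by -0.12 at 24 to 48 h and zip1, a bZIP factor gene, by -0.09. The response regulator gene prr1 differed by 0.41 and pho7, the activator of phosphate genes, by -0.17, all under 2-fold. In the wild type against 0 h at 24 to 48 h, zip1 rose by 1.59 ± 0.04, prr1 fell by 1.25, and pho7 differed by -0.80, which was under 2-fold.

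Of 30 genes of nutrient and stress kinase signalling, 2 rose and 3 fell in the wild type at 4 to 12 h, and 1 rose and 3 fell at 24 to 48 h, with medians of 0.29 and 0.20. Those that fell furthest late were cek1, a Greatwall-family kinase gene (-1.69 ± 0.04), and ssp2, the catalytic subunit gene of AMP-activated kinase (-1.58 ± 0.03). At 4 to 12 h gpa2, the G protein gene of glucose sensing, rose by 1.44 ± 0.06. Between strains none was called at 4 to 12 h by edgeR or by DESeq2, although 25 had an unadjusted p under 0.05. At 24 to 48 h only gcn2 was called, higher in the deletion by 1.02 ± 0.02 (346 ± 24.2 against 171 ± 5.29 CPM). The list medians between strains were -0.04 and -0.02, beside 0.00 and -0.01 over all genes.

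Of 9 listed zinc homeostasis genes 8 were matched in the table. Within the wild type 2 rose and 2 fell at 4 to 12 h, and 3 rose and 2 fell at 24 to 48 h, with medians of 0.60 and 0.28. These counts and medians include zip1 and loz1, which were already counted with the transcription factors. The bZIP factor gene zip1 was among the 3 that rose late (1.59 ± 0.04), while loz1 was not called there (0.55 ± 0.05). The data do not show zip1 to be a gene of zinc homeostasis. The metallothionein gene zym1 rose by 4.99 ± 0.16 late, and the zinc importer gene zrt1 by 2.34 ± 0.12. Between strains at 4 to 12 h zym1 was higher in the deletion by 1.32 ± 0.08 and zrt1 lower, at -1.53 ± 0.07. At 24 to 48 h 3 were higher and none lower: zym1 by 1.88 ± 0.08 (11884 ± 2460.4 against 3282 ± 954 CPM), adh4, an alcohol dehydrogenase gene that zinc represses, by 1.75 ± 0.06, and zhf1, a zinc transporter gene, by 1.03. The medians of the list between strains were 0.05 and 0.13.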

How the data were processed

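Polyadenylated RNA of 14 groups was measured in 42 libraries, 3 per group, made with a strand-marking kit per the labels' protocols. The deposited table holds counts per gene, all whole but for 19110 of 293538 values (6.51%) that are 0.5, with no 0 in the table. They were treated as estimated counts as deposited, and 0.5 was rounded to 0. The submitters' processing notes name HISAT2 2.1.0, SAMtools, HTSeq 0.10.0, DESeq2 and build ASM294v2, with no role or order. How strand and multiply mapped reads were treated is not given in the sources used here. The authors also deposited comparisons with wild type 0 h, which per the file headers hold log2 fold changes, their standard errors, a test statistic (a score), p-values and a mean normalised signal. Groups came from the labels, and the table holds 0 value columns that match no sample. A duplicated identifier was summed.

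In R 4.3.3 with edgeR 4.0.16, genes were filtered by filterByExpr, libraries were scaled by TMM, and 1 quasi-likelihood model (glmQLFit, glmQLFTest) with a mean for each group took in the 42 libraries together, with 28 residual degrees of freedom. P-values were adjusted by Benjamini-Hochberg over the 6521 genes of each comparison, and every adjusted p in the text comes from this model. The model was tested on simulated data for the strain comparison at 24 h, where 100% of 200 changed genes among 6521 were recovered with 1 false call. The planted changes all lay well past the 2-fold limit, in genes above a minimum expected count, and the spread was that of the fitted model. The simulation therefore checks only that the code runs correctly. It says nothing of changes near the limit or of counts as low as those of ecl3 in wild type 0 h. The alternatives were DESeq2 1.42.0, library size alone, no filter, each strain fitted alone, adjustment over all comparisons together, a replicate block, leaving out each library, and, added after seeing the data, leaving out the libraries labelled wild type 0 h.

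The ecl genes and the 3 gene lists were chosen with earlier results of these data known, so no test over a list was made. Named were the ecl genes, the check genes, the 3 genes most like each ecl gene, their neighbours, the 2 most changed called genes of each list and comparison, and fil1, zip1, hsf1, prr1 and pho7 in any case. In addition, prt2, pho84 and pho1 values at 0 h, zhf1, and the comparison of neighbours in single groups were chosen after their values were seen. Gene names, lengths and order came from a reference of assembly ASM294v3, which differs from the build of the counts, so coordinates, promoter and protein sequences were not analysed here, nor was a planned motif search. The same 3 libraries serve as wild type 0 h in every comparison with that group. Depth and strain change together, and counting intervals cover counting error only.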

Additional observations from a re-analysis of the deposited data

Results flagged for a closer look

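The step between the stages labelled limited growth (4 to 12 h without phosphate) and quiescence (24 to 48 h) differed between the strains for each of the 3 ecl genes, by edgeR's test of that difference. For ecl1 the deletion's change exceeded that of the wild type by 3.84 on the log2 scale, and it was higher in all 9 late deletion libraries than in any wild-type library. How many of all genes were separated in that way was not counted. For ecl2 the excess was 1.49. For ecl3 the difference was -1.15, and its sign is opposite to that of the other two. Over all 6521 genes 14% were called in this test. Mating type (h+ or h-) and depth per library changed with the maf1 genotype, and their part in these differences was not tested.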

How the results depend on the processing

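Of 294 values of the tested ecl comparisons under settings other than leaving out a library, 288 kept their direction and their side of the threshold. The exceptions were ecl2 in the deletion at 12 h against its own 0 h, which passed 2-fold with DESeq2 (1.02), with each strain fitted alone (1.02), with library size alone (1.08) and with the libraries labelled wild type 0 h left out (1.04, chosen after seeing the data), and ecl3 between strains at 12 h with library size alone (1.03) and without those libraries (1.00). Of 432 values with 1 library left out, 427 kept both. The first of these results then ran from 0.967 to 1.03 and the second from 0.948 to 1.01. The ecl3 strain difference at 48 h ran from -0.0889 to 0.0114, and its sign reversed without deletion 48 h replicate 1. In these cases the cause was not tested. Of 102 untested descriptive values of the ecl genes under the other settings, 12 moved past a limit set from the model's SE. Of 126 such values with 1 library left out, 14 did. Counts of genes called over all genes and in each list stayed within 1.5 times under every alternative run. Library size alone moved the median of all genes by over 0.1 on the log2 scale in 3 comparisons, the deletion at 4 h against its own 0 h (a shift of 0.12) and the early (-0.18) and late (-0.27) wild-type stages against 0 h. Deviations of same-numbered libraries correlated between -0.0746 and 0.111 across strains, and between -0.00607 and 0.149 within the deletion. Differently numbered libraries were not compared, so these values cannot show that pairing is absent. With the replicate block, the ecl1 strain difference at 48 h was 5.75, the differences in stage change were 3.84, 1.49 and -1.15, and no call of an ecl gene changed. The low level of ecl3 in the wild type at 0 h limits its values there, with 18 counts over 3 libraries.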
